A study of Mus musculus with 6 samples.

Results

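Cd69, Cd44, Cd28, Icos, Cd40lg and Tfrc, 6 genes of 15452 in the deposited table, encode surface proteins by which T cell activation and costimulation are commonly read. They were taken from the table by symbol, as a set chosen with earlier results of these data known. All 6 passed the filter on low counts. The table holds 6 RNA-seq libraries of mouse Th17 cells, helper T cells that make interleukin 17, grown from naive CD4+ T cells of spleen and lymph node. The WT group (3 libraries) carries floxed alleles without Cre. The knockout group (3 libraries) carries the same floxed alleles with CD4 Cre, a recombinase driven by the Cd4 promoter and so active across the T cell lineage, and is labelled a knockout of PDH (pyruvate dehydrogenase). Genotype labels spell the locus PDH and sample titles spell it PHD, and neither says which gene is floxed. Every culture ran for 3 days on plate-bound anti-CD3 (5 µg/mL) with anti-CD28 (1 µg/mL), IL-6 (30 ng/mL), TGFβ (2 ng/mL) and an antibody against interferon γ (5 µg/mL). All groups were therefore stimulated through the T cell receptor and through CD28, and neither group was left unstimulated. No strain or age is given, Cre occurs in the knockout group alone, and no label ties a library to its own mouse, so p-values measure the spread between these libraries, which may be technical.

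A naive T cell needs a signal from its antigen receptor and a costimulatory signal, classically from CD28 when it meets CD80 or CD86 on the presenting cell. Activated cells then put new proteins on their surface: CD69 within hours, followed by ICOS, CD40 ligand, the transferrin receptor and more CD44. CD28 and ICOS belong to the same receptor family and recruit phosphoinositide 3-kinase, while the related CTLA-4 competes with CD28 for its ligands. Several of these transcripts are controlled through their 3′ UTR. Iron regulatory proteins bind hairpins in the Tfrc 3′ UTR and protect the transcript when iron is scarce, AU-rich elements mark short-lived transcripts, and the Roquin and Regnase proteins degrade Icos mRNA.

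Elements of that kind were read from the longest coding transcript of each gene in GENCODE M21, a release for the build GRCm38, on the sense strand and 5′ to 3′. They are shown because they set Tfrc apart from the other 5 genes and because Cd69 and Cd40lg, which moved in opposite directions below, carry the same AU-rich heptamer. The iron-responsive element was searched as a C, 5 bases, the loop CAGTGN, and 5 bases that pair with the 5 before the loop (G-U pairs included). The Tfrc 3′ UTR, 2458 bases long, held 4 of them, with the loop in capitals.
Tfrc element 1: atcggaagCAGTGCcttccat
Tfrc element 2: atcgggagCAGTGTcttccat
Tfrc element 3: atcggagaCAGTGAtctccat
Tfrc element 4: atcgggaaCAGTGTttcccat
The stems differ in sequence and still pair, and all windows begin with atcgg and end with ccat. Of 20981 genes with a 3′ UTR, 0.56% held at least 1 such element (1.2% of those with a 3′ UTR of similar length), and Tfrc alone held more than 1. None was found in the other 5 genes.
The AU-rich heptamer TATTTAT, in capitals, occurred at these places in the 3′ UTRs of Cd69 (936 bases) and Cd40lg (455 bases).
Cd69 site 1: gagttacTATTTATtgccgaa
Cd40lg site 1: aactgccTATTTATaacccta
Cd40lg site 2: ggagaacTATTTATtatgtac
Cd44 held 3 such heptamers, Cd28 and Tfrc 2 each and Icos none, which says only that these letters are not in that window. The heptamer is common: 27.4% of all 3′ UTRs held it, 23.5% of those close to Cd69 in length and 11.2% of those close to Cd40lg. At least 2 were held by 2.4% of the 3′ UTRs close to Cd40lg in length. A match is a description and not a measured site.

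Levels below are in CPM, that is, counts scaled by library size with TMM factors, as mean ± SD with n = 3 per group. Changes are log2 fold changes of knockout over WT ± SE with adjusted p from the edgeR quasi-likelihood test. Totals ran from 33.80 to 40.41 M counts per library. As a check of the genotype, Pdha1, the E1 alpha subunit of pyruvate dehydrogenase, lay between 236 and 256 CPM in WT and between 186 and 198 CPM in knockout (-0.36 ± 0.06). Of the other subunit genes checked, Dlat fell more (-0.68 ± 0.06) and Pdhb was not called (-0.14 ± 0.06, adjusted p = 0.063). These levels do not show which gene is floxed. Counts over a whole gene do not show whether an exon was lost. T cell markers were high in every library, with 10 of 10 in the table and sums of 3242 to 3444 CPM in WT and 2168 to 2382 CPM in knockout (by library totals), and 8 of the 10 fell. Cd3e (131 to 138 CPM in WT, 130 to 144 CPM in knockout) and Cd5 (513 to 585 and 515 to 603 CPM) were not among those that fell. In such bulk libraries fewer T cells and less of these transcripts per cell were not told apart, and neither was tested. B cell markers (10 of 10 in the table, none at 0 in every library, 0 called) summed to 5.46, 30.2 and 5.07 CPM in WT replicates 1 to 3 and to 4.49, 59.3 and 98.7 CPM in knockout replicates 1 to 3. Knockout replicate 2 also stood apart from its group: its chi-square per degree of freedom was 154 and 143 against the other knockout libraries, and 30.1 between those. Dendritic cell markers (5 of 8 in the table) summed to 9.05 to 13.1 CPM in WT and 15.8 to 18.8 CPM in knockout, with no overlap (exact two-sided permutation p = 0.1, the smallest possible), and 2 of the 5, Itgax and Zbtb46, rose. Batf3, which T cells also express, made up most of that sum in WT and in knockout replicate 1 (12.2 of 16.1 CPM). In knockout replicate 2 Batf3 (6.85 CPM) lay below every WT library. Clec9a, Siglech and Cd209a were not among the table's rows. A fit without the 3 libraries with raised B cell markers, WT replicate 2 and knockout replicates 2 and 3, is quoted beside named genes. It is given mainly where it ended a call or moved a called value by over 1.5 times. Knockout replicate 1 is then the only knockout library, so log2 fold changes alone are given. Calls in this fit cannot tell an effect of B cells from the loss of libraries.

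Of the 6 genes, Cd69 rose in knockout cells and Icos and Cd40lg fell, while Cd28, Cd44 and Tfrc did not pass the test. Across the transcriptome 47.6% of 15361 tested genes were called, 23.1% higher and 24.5% lower, so 3 of 6 is close to the background. Counts of called genes in the lists below are to be read against these shares. In the same 3 genes the groups did not overlap, which held for 58.2% of all tested genes. The plot of the 6 genes by library shows the values.

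**Figure D1:**
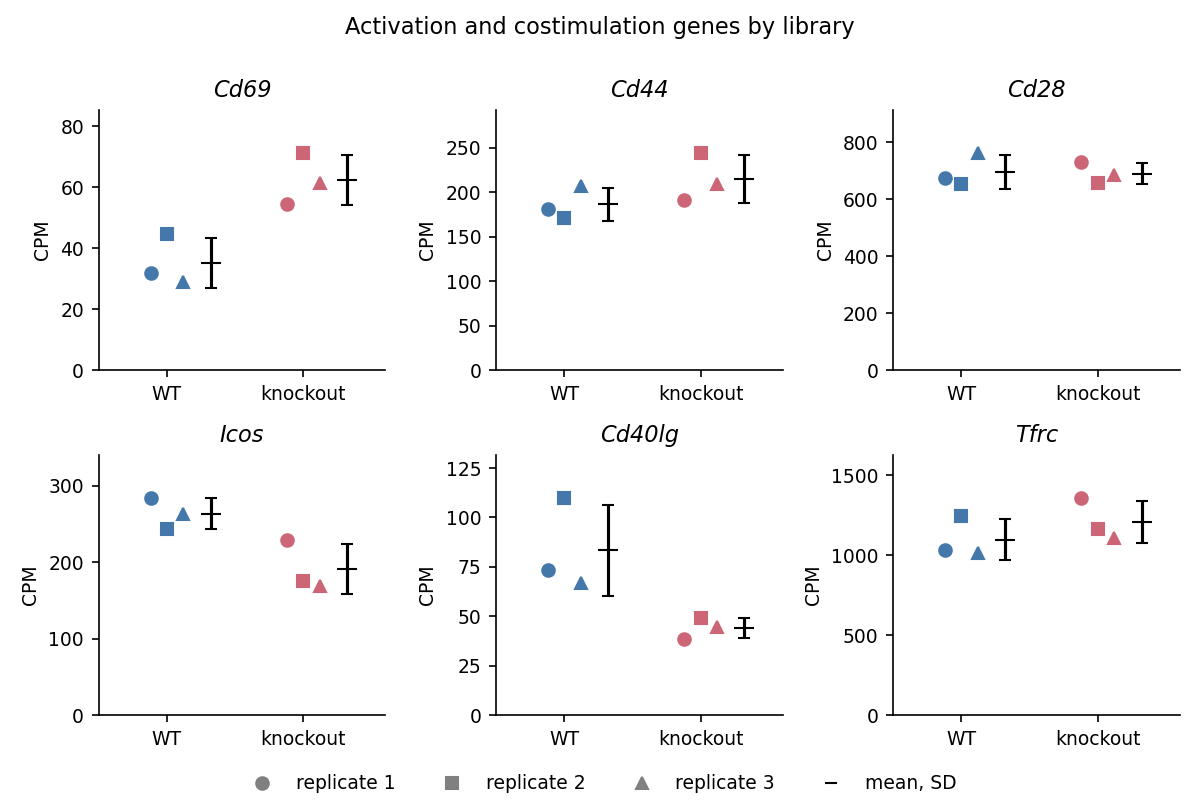
TMM-scaled CPM (vertical axis, from 0) of each gene in the 3 WT and 3 knockout libraries; symbols give the replicate number, bars the mean and SD. Cd69 lay above, and Icos and Cd40lg below, every WT value in all knockout libraries, while the groups overlapped for Cd44, Cd28 and Tfrc.

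Cd69 encodes an early activation antigen, a C-type lectin that binds the sphingosine 1-phosphate receptor S1PR1 and takes it off the surface. Cd69 (ENSMUSG00000030156.6) was at 31.7, 44.6 and 29.0 CPM in WT replicates 1 to 3 and at 54.6, 71.2 and 61.2 CPM in knockout replicates 1 to 3. The highest WT library, replicate 2, was still below the lowest knockout library. The means were 35.1 ± 8.31 and 62.3 ± 8.34 CPM, a log2 fold change of 0.83 ± 0.18 or 1.77-fold (95% interval 1.31 to 2.40, adjusted p = 0.0102). The increase passed under every alternative that kept more than 1 knockout library, with log2 fold changes from 0.67 to 1.04. These include the test against a fold of 1.2 (adjusted p = 0.0275). Within each group the libraries with raised B cell markers held the most Cd69, and activated B cells also express it. Without these 3 libraries, with knockout replicate 1 then the only knockout library, Cd69 was at 0.85.

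Around Cd69, the list of its partners and of lymphocyte egress genes held 13 tested genes, of which 3 rose and 5 fell, with a median log2 fold change of 0.00 against 0.01 for all tested genes. S1pr1, the egress receptor that CD69 binds, rose slightly, from 54.7, 44.4 and 59.2 CPM in WT to 66.2, 66.1 and 62.8 CPM in knockout (0.30 ± 0.10, adjusted p = 0.0284). That call was lost when WT replicate 1 or any single knockout library was left out (adjusted p from 0.0534 to 0.0721). Klf2, a transcription factor that drives S1pr1, was at 7.57, 7.96 and 6.38 CPM in WT and 8.57, 9.45 and 9.44 CPM in knockout (adjusted p = 0.0524), and was called without WT replicate 2 (adjusted p = 0.0307) and under 4 other settings (adjusted p from 0.0202 to 0.0484). Within a library, the ratio of Cd69 to S1pr1 counts ran from 0.490 to 1.00 in WT and from 0.825 to 1.08 in knockout, and these ranges overlap (exact two-sided permutation p = 0.3). The other increases were in Sgpl1, which degrades sphingosine 1-phosphate (0.26 ± 0.06), and Mfsd2b, which exports it (0.81 ± 0.23, lost without WT replicate 1 or knockout replicate 2 or 3, adjusted p from 0.0518 to 0.0722). The myosin light chain genes Myl12a and Myl12b, whose products are described as CD69 ligands, fell by 0.55 and 0.79 on the log2 scale. S1pr4, another receptor for sphingosine 1-phosphate, and Sphk1, a kinase that makes it, fell by 0.41 and 0.82. The fit without the 3 libraries with raised B cell markers gave 0.22 for S1pr1, 0.55 for Mfsd2b, -0.34 for S1pr4 and -0.49 for Sphk1. The amino acid transporter subunit gene Slc3a2, whose protein forms the CD98 complex with that of Slc7a5, was level (0.00 ± 0.12, adjusted p = 1), with a sign that turned under 7 alternatives.

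Icos encodes the inducible costimulator, which activated T cells need for help to B cells and for sustained effector function. Icos (ENSMUSG00000026009.15) was at 284, 244 and 263 CPM in WT and at 229, 176 and 169 CPM in knockout. The groups did not overlap, with knockout replicate 1 nearest to the lowest WT library, replicate 2. The means were 264 ± 20.1 and 191 ± 32.8 CPM (-0.46 ± 0.12, 0.725-fold with a 95% interval of 0.601 to 0.874, adjusted p = 0.0123). Tested against a fold of 1.2, which 25.9% of all genes passed, Icos did not (adjusted p = 0.0738), while Cd69 and Cd40lg did. Without the 3 libraries with raised B cell markers Icos was at -0.26, a value that rests on knockout replicate 1 alone.

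Cd28, the primary costimulatory receptor, was level. Cd28 (ENSMUSG00000026012.3) was at 672, 651 and 761 CPM in WT and at 728, 657 and 683 CPM in knockout, with the groups fully overlapping. The means were 695 ± 58.4 and 689 ± 36.2 CPM (-0.01 ± 0.08, adjusted p = 0.914), and the 95% interval of the fold ran from 0.880 to 1.12. The sign of this small difference changed with the scaling.

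Cd28, Ctla4 and Icos are neighbours in the RefSeq gene table of GRCm38.p6, in this order with no other coding gene between them. They parted company here: Ctla4, the inhibitory member, was at 614, 603 and 673 CPM in WT and 234, 259 and 214 CPM in knockout (-1.42 ± 0.08, adjusted p = 7.83e-06). Ratios of counts within a library do not depend on how libraries are scaled. The ratio of Icos to Cd28 was 0.422, 0.374 and 0.346 in WT replicates 1 to 3 and 0.314, 0.268 and 0.247 in knockout replicates 1 to 3, that is, 0.724-fold for the group means on the log2 scale, with no overlap. The ratio of Ctla4 to Cd28 was 0.913, 0.925 and 0.885 in WT and 0.322, 0.394 and 0.314 in knockout, 0.376-fold. For both, the exact two-sided permutation p was 0.1, the smallest that 3 against 3 libraries allows. Of the 7 listed genes of this stretch, Cd28, Ctla4 and Icos included, 2 rose and 4 fell (85.7% called against 47.6% of all tested genes). The list stops short of Nbeal1 and Nrp2, the next coding genes on either side, which were tested and whose calls are not reported here. The share called thus depends on where the list ends. Beyond Cd28, Raph1 rose (0.34 ± 0.09) and Abi2 and Cyp20a1 fell by 0.47 and 0.62, and on the Icos side Pard3b rose (1.13 ± 0.30) from a level under 1 CPM in WT, a call lost without WT replicate 1 or knockout replicate 3 (adjusted p = 0.052 and 0.0525).

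**Figure D2:**
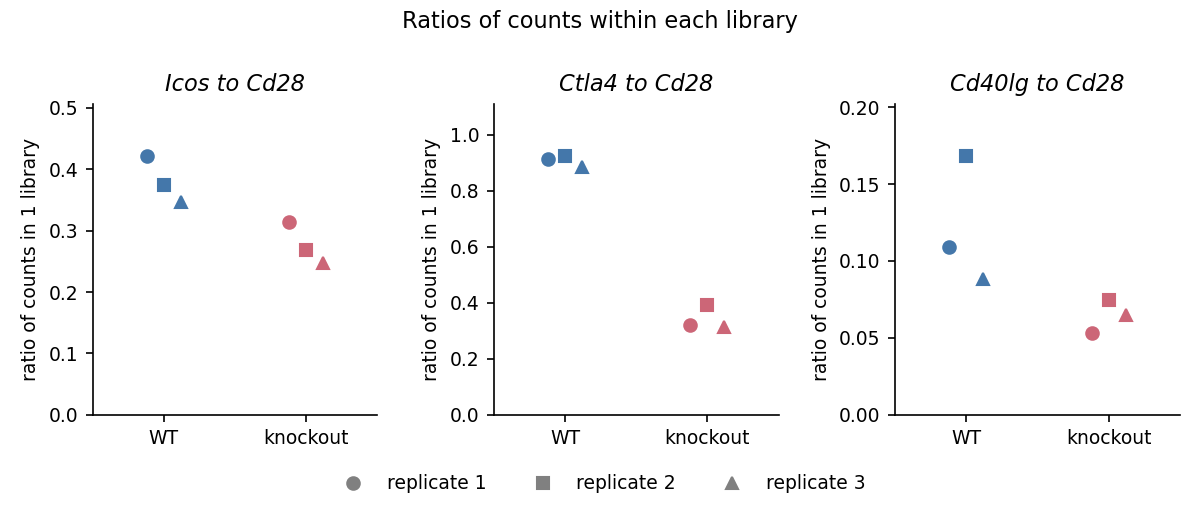
Ratio of the counts of 2 genes within each library (vertical axis, no unit, from 0) for Icos, Ctla4 and Cd40lg over Cd28; symbols give the replicate number. All 3 ratios were lower in every knockout library than in any WT library.

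Of the 10 CD28 family receptors and ligands, 4 rose and 2 fell, with a median log2 fold change of 0.32. The receptors Ctla4 and Icos fell, the inhibitory receptor gene Btla rose from 123, 159.7 and 118 to 190.2, 267 and 254 CPM (0.83 ± 0.17, adjusted p = 0.00818), and Cd28 and Pdcd1 (0.01 ± 0.23) were not called. On the ligand side Cd80 rose from 14.3, 15.6 and 18.4 to 25.4, 44.5 and 37.8 CPM (1.15 ± 0.21, adjusted p = 0.00520), and Cd86 by 0.33 and Icosl by 1.05, each from a low level. The Cd86 call was lost without WT replicate 1 or 3 or knockout replicate 1 or 3 (adjusted p from 0.0718 to 0.114), and the Icosl call without WT replicate 3 or knockout replicate 2 (adjusted p = 0.0575 and 0.0731). B cells express Btla, Cd80, Cd86 and Icosl. All but Cd86 were highest in knockout replicate 2 and lowest among knockout libraries in replicate 1. The B cell marker sum was also lowest in knockout replicate 1 (4.49 CPM), but it was highest in replicate 3 (98.7 CPM, against 59.3 CPM in replicate 2). Among WT libraries that sum, Btla and Cd86 were highest in replicate 2, Cd80 in replicate 3 and Icosl in replicate 1. Without the 3 libraries with raised B cell markers Btla was at 0.66, Cd80 at 0.64, Cd86 at 0.42 and Icosl at 0.51. Dendritic cells also express Cd80, Cd86 and Icosl. The sum of their markers, though not each marker, was higher in every knockout library (15.8 to 18.8 against 9.05 to 13.1 CPM). Batf3 made up 12.2 CPM of that sum in knockout replicate 1. The part of dendritic cells in these levels was not tested.

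**Figure D3:**
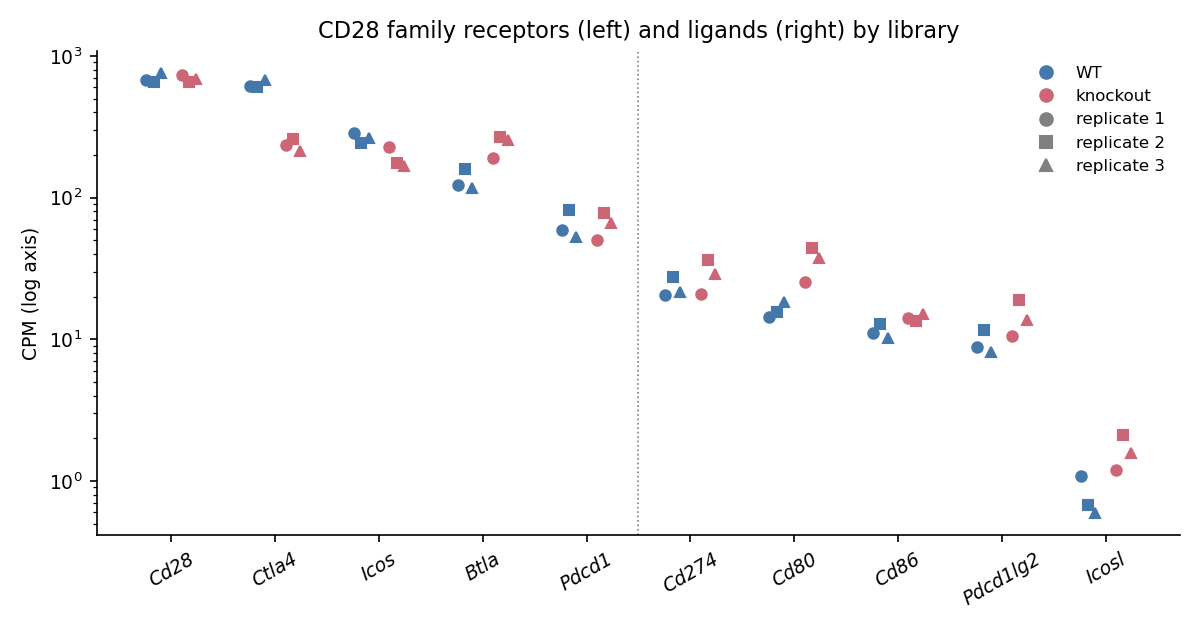
TMM-scaled CPM (log axis) of 5 CD28 family receptor genes, left of the dotted line, and 5 ligand genes, right of it, in every library; colours give the group and symbols the replicate. Ctla4 stands apart by its drop to between 214 and 259 CPM in knockout, while Cd28 stayed between 651 and 761 CPM in all 6 libraries.

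Downstream of CD28 and ICOS, 24 genes of phosphoinositide 3-kinase, PKC theta and NF-κB signalling were tested: 4 rose and 7 fell, leaving 13 without a call, and the median was -0.06. The regulatory subunit gene Pik3r3 rose from a low level, 0.946, 0.759 and 0.890 CPM in WT to 6.86, 7.10 and 6.69 CPM in knockout (2.99 ± 0.17, adjusted p = 7.07e-06). The more abundant regulatory subunit gene Pik3r1 rose by 0.37 and Pik3r2 fell by 0.60. Vav3, a guanine nucleotide exchange factor, rose from 6.38, 7.88 and 6.42 to 12.5, 16.8 and 15.2 CPM (1.11 ± 0.14, adjusted p = 0.000249). Among the decreases, the kinase gene Akt2 went from 192, 199 and 183 to 145, 154 and 154 CPM (-0.34 ± 0.06, adjusted p = 0.00127). Lck, Inpp5d, Grap2 and Grb2 fell by 0.29, 0.29, 0.24 and 0.20, the last of these not without WT replicate 1 or knockout replicate 2 (adjusted p = 0.0741 and 0.0633). Values without the 3 libraries with raised B cell markers were 0.24 for Pik3r1, -0.26 for Lck, -0.17 for Grap2 and -0.18 for Grb2. The catalytic subunit gene Pik3cd, Prkcq (PKC theta), Carmil2, Bcl10 and Malt1, which carry the CD28 signal to NF-κB, had log2 fold changes between -0.07 and 0.07 and were not called.

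Cd40lg encodes CD40 ligand, the TNF family member through which helper T cells activate B cells and dendritic cells. Cd40lg (ENSMUSG00000031132.2) was at 73.2, 109.7 and 67.1 CPM in WT and at 38.7, 49.0 and 44.5 CPM in knockout. WT replicate 2 was far above the other WT libraries, and all knockout libraries were below 50 CPM. The means were 83.3 ± 23.1 and 44.1 ± 5.14 CPM (-0.92 ± 0.21, 0.528-fold with a 95% interval of 0.366 to 0.762, adjusted p = 0.0162). The call was lost when knockout replicate 1 or 3 was left out (adjusted p = 0.0591 and 0.0562). Without WT replicate 2, the spread was smaller and the value was -0.67 (adjusted p = 0.000767). The ratio of Cd40lg to Cd28 was 0.109, 0.169 and 0.0881 in WT and 0.0532, 0.0746 and 0.0652 in knockout.

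Of 11 tested partners of CD40 ligand, 2 rose and 2 fell, with a median of -0.02. Its receptor gene Cd40 rose from 1.03, 2.28 and 1.11 to 5.79, 7.47 and 7.34 CPM (2.22 ± 0.30, adjusted p = 0.000468), so receptor and ligand moved in opposite directions. B cells and dendritic cells express Cd40 as well. In knockout replicate 1, where Cd40 was at 5.79 CPM, the B cell marker sum was 4.49 CPM. The dendritic cell marker sum there was 16.1 CPM, 12.2 CPM of it Batf3, against 9.05 to 13.1 CPM in WT. The part of dendritic cells was not tested. Itga2b, the alpha IIb integrin of platelets, rose from about 1 CPM (1.04 ± 0.26), with 5 of 6 listed platelet markers not among the table's rows. The integrin genes Itgb3 and Itga5, whose products also bind CD40 ligand, fell by 0.52 and 0.37. The Itga5 call was lost without WT replicate 1 or 3 or knockout replicate 1 (adjusted p from 0.0667 to 0.0749). Without the 3 libraries with raised B cell markers Itga2b was at 0.68 and Itga5 at -0.66. The signal adapters Traf1, Traf2, Traf3, Traf5 and Traf6 were not called.

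Cd69 and Cd40lg shared a pattern within the groups: both were highest in replicate 2 of WT and of knockout, and both were lowest among knockout libraries in replicate 1. Parts of this order were also frequent in a list of immediate-early genes, which T cell receptor signals switch on within minutes to hours. That list also holds calcineurin-NFAT pathway and related transcription factor genes. Of its 21 genes tested, 15 were highest in replicate 2 among the WT libraries, against 38.3% of all tested genes. Counted separately, 14 were lowest in replicate 1 among the knockout libraries, against 35.1%. Genes that followed the whole order were not counted, and Nr4a1 and Batf, for example, were highest among knockout libraries in replicate 3. Egr1, for example, was at 36.7, 79.5 and 30.3 CPM in WT and 33.8, 54.8 and 46.7 CPM in knockout. The same libraries held the raised B cell markers, and their part in this order was not tested.

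Between the groups, this list split, with 4 rising, 6 falling and a median of -0.09. Fosl2, an AP-1 subunit, went from 194, 161 and 202 to 37.7, 48.0 and 41.5 CPM (-2.13 ± 0.11, adjusted p = 1.02e-05), and the orphan receptor genes Nr4a2, Nr4a3 and Nr4a1 fell by 1.87, 1.80 and 1.62. Nfkb1 and Rel fell by 0.43 and 0.34, the latter not without WT replicate 3 (adjusted p = 0.059) and by 0.57 without the 3 libraries with raised B cell markers. Jun rose from 31.1, 35.4 and 32.2 to 54.7, 70.6 and 61.4 CPM (0.92 ± 0.10), and Myc and Nfatc2 rose by 0.83 and 0.32. Irf4 rose by 0.17 ± 0.06 (adjusted p = 0.0497), a call that the omission of any single library ended (adjusted p from 0.0638 to 0.137). It was at 0.16 without the 3 libraries with raised B cell markers. Egr1, Egr2, Egr3, Fos and Fosb, with standard errors from 0.34 to 0.46, were not called.

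Cd44 encodes the hyaluronan receptor whose level separates antigen-experienced from naive T cells. Cd44 (ENSMUSG00000005087.18) was at 181, 171 and 207 CPM in WT and 191, 244 and 209 CPM in knockout. The groups overlapped, with WT replicate 3 inside the knockout range. The means were 186 ± 18.4 and 215 ± 26.8 CPM (0.20 ± 0.10, adjusted p = 0.123), and the 95% interval of the fold was 0.984 to 1.35. Without knockout replicate 1 Cd44 was called higher (0.28, adjusted p = 0.0416). B cells also express Cd44. It was at -0.02 without the 3 libraries with raised B cell markers, a value that rests on knockout replicate 1, the lowest knockout library. With the B cell marker sum as covariate Cd44 was at 0.17 (adjusted p = 0.28 in edgeR).

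Of 15 tested CD44 partners, 1 rose and 8 fell, with a median of -0.18. Selplg, the selectin ligand PSGL-1, went from 290.2, 256 and 266 to 157, 169 and 184 CPM (-0.67 ± 0.07, adjusted p = 0.000125). Nf2, which encodes merlin, a protein that binds the CD44 tail, was at 151, 151 and 150.5 CPM in WT and at 112, 118 and 118 CPM in knockout (-0.38 ± 0.05). Its relative Ezr, ezrin, fell by 0.24, not without WT replicate 1 or knockout replicate 2 (adjusted p = 0.072 and 0.0735), while Msn and Rdx, the other members of the ERM family, were not called (0.14 ± 0.06 and -0.03 ± 0.08). Hmmr, a mitotic gene that encodes another hyaluronan receptor, fell by 0.51. Hyal2, a hyaluronidase, fell by 0.32 (lost without WT replicate 2 or knockout replicate 1 or 3, adjusted p from 0.0504 to 0.0637). Of the sheddase genes, Mmp14 fell by 0.70 from at most 1.46 CPM (lost without WT replicate 1 or 3 or knockout replicate 1 or 3, adjusted p from 0.0611 to 0.0869) and Adam10 by 0.18 (lost without WT replicate 1 or 2 or knockout replicate 2 or 3, adjusted p from 0.0607 to 0.119), while Adam17 was not called (-0.01 ± 0.05, adjusted p = 0.888). Values without the 3 libraries with raised B cell markers were -0.15 for Ezr, -0.25 for Hyal2, -0.92 for Mmp14 and -0.07 for Adam10. The increase was in Cd74, the invariant chain, which forms a receptor with CD44 (38.8, 61.5 and 37.3 CPM in WT, 163, 154 and 234 CPM in knockout, 2.00 ± 0.29). B cells and dendritic cells express Cd74 strongly. In knockout replicate 1, where Cd74 was at 163 CPM, the B cell marker sum was 4.49 CPM. Cd74 was at 2.10 without the 3 libraries with raised B cell markers. The dendritic cell marker sum, though not each marker, was higher in every knockout library (15.8 to 18.8 against 9.05 to 13.1 CPM). The part of dendritic cells in this rise was not tested.

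Tfrc encodes the transferrin receptor, CD71, which brings iron into dividing cells. Tfrc (ENSMUSG00000022797.17) was the most abundant of the 6 genes, at 1031, 1249 and 1016 CPM in WT and 1357, 1164.5 and 1107 CPM in knockout. WT replicate 2 lay within the knockout range, so the groups overlapped. The means were 1098.8 ± 130.35 and 1209.7 ± 131.06 CPM (0.14 ± 0.10, adjusted p = 0.292), and the 95% interval of the fold was 0.938 to 1.29. The value ran from 0.04 without knockout replicate 1 to 0.24 without WT replicate 2, and was not called without any single library. Without the 3 libraries with raised B cell markers Tfrc was at 0.41. That value sets knockout replicate 1, the highest of all 6 libraries, against the lower WT libraries, and holds no spread between knockout libraries. No erythroid marker of the 8 listed was among the table's rows.

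Of 22 iron handling genes tested, Tfrc included, 1 rose and 6 fell, leaving 15 without a call, and the median was -0.02. The regulators that bind the hairpins shown above were level: Aco1 (iron regulatory protein 1) was at 67.6 to 70.8 CPM in WT and 67.5 to 70.2 CPM in knockout, and Ireb2 (iron regulatory protein 2) at 83.1 to 86.3 and 84.0 to 86.6 CPM. Fbxl5, the ubiquitin ligase subunit that senses iron, and the ferritin genes Fth1 and Ftl1 were not called (-0.03 ± 0.06, 0.11 ± 0.07 and -0.03 ± 0.07). Among the decreases, Rab11a, of the recycling endosome, went from 64.7, 65.0 and 68.5 to 52.3, 52.5 and 47.8 CPM (-0.38 ± 0.06, adjusted p = 0.0011). Slc11a2, which moves iron out of endosomes, and Slc39a8, a zinc and iron importer, fell by 0.41 and 0.68, and Snx3, a sorting nexin for the receptor, by 0.28. Tfr2 fell by 0.99 from under 1 CPM, not without knockout replicate 3 (adjusted p = 0.0589). Pcbp1 fell by 0.24 and Ncoa4, the ferritin autophagy receptor, rose by 0.16, calls that each rest on most libraries. Pcbp1 was lost without any library but WT replicate 3 (adjusted p from 0.0515 to 0.121) and Ncoa4 without any but WT replicate 2 (adjusted p from 0.0747 to 0.0991). Log2 fold changes without the 3 libraries with raised B cell markers were -0.25 for Snx3, -0.89 for Tfr2, -0.09 for Pcbp1, 0.21 for Ncoa4 and -0.35 for Slc39a8.

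Per kilobase of the longest coding transcript the genes can be set in order, as scaled CPM per kb, a length that overstates the shorter Cd44 isoforms. In WT the order was Tfrc (225 ± 26.7), Cd28 (159.8 ± 13.4), Icos (81.3 ± 6.20), Cd40lg (66.7 ± 18.4), Cd44 (33.2 ± 3.27) and Cd69 (20.8 ± 4.93). Icos and Cd40lg did not differ beyond their spread, and each other step exceeded it. In knockout it was Tfrc (247 ± 26.8), Cd28 (159 ± 8.33), Icos (59.0 ± 10.1), Cd44 (38.2 ± 4.77), Cd69 (36.9 ± 4.94) and Cd40lg (35.2 ± 4.11), the last 3 within each other's spread. Cd40lg thus stood next to Icos in WT and level with Cd69 in knockout.

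**Figure D4:**
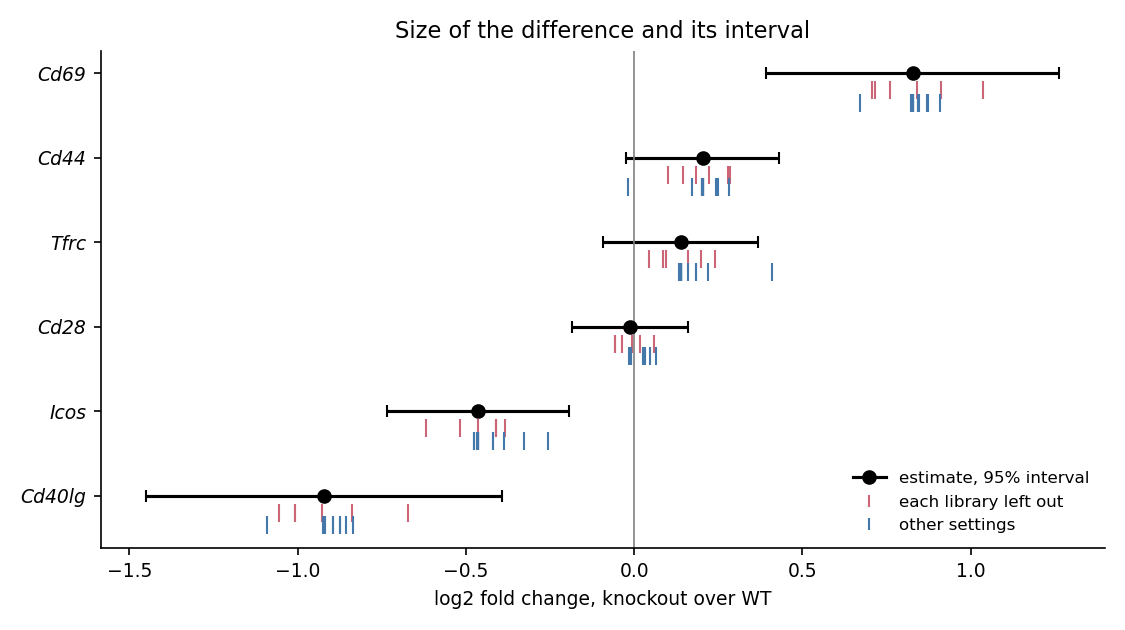
Log2 fold change of knockout over WT (horizontal axis) for the 6 genes, with the 95% interval of the fit (bars), the values with each library left out (red ticks) and under the other settings (blue ticks). The intervals of Cd69, Icos and Cd40lg leave out 0, and those of Cd44, Tfrc and Cd28 hold it.

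Next came genes for proteins that act on activation transcripts. Of 10 tested RNA-binding regulators, 4 rose and 1 fell, with a median of 0.20. Rc3h2, which encodes Roquin-2, a repressor of Icos mRNA, rose from 40.0, 40.3 and 44.8 to 71.7, 69.9 and 67.0 CPM (0.74 ± 0.07, adjusted p = 4.36e-05). Its paralogue Rc3h1, Roquin-1, was at 81.0, 83.2 and 81.7 CPM in WT and 90.7, 96.2 and 87.1 CPM in knockout (0.16 ± 0.06, adjusted p = 0.0504), and was called without knockout replicate 3 (adjusted p = 0.049) and under 4 other settings (adjusted p from 0.00753 to 0.0434). Zc3h12a, Regnase-1, was not called (0.11 ± 0.09, adjusted p = 0.362), and its relatives Zc3h12d and N4bp1 rose by 0.35 and 0.42. Zfp36l1, which encodes a protein that binds AU-rich heptamers like those shown above, rose by 0.56 ± 0.15, not without WT replicate 1 or knockout replicate 2 or 3 (adjusted p from 0.0539 to 0.0631). Elavl1, which stabilises such transcripts, fell by 0.20 and was lost without WT replicate 1 or 2 or knockout replicate 2 or 3 (adjusted p from 0.0688 to 0.0986). It was at -0.09 without the 3 libraries with raised B cell markers.

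Other surface genes of activated T cells changed more often than not: of 27 tested, 6 rose and 12 fell, 66.7% called against 47.6% of all genes, with a median of -0.29. Il2ra, the high-affinity IL-2 receptor chain CD25 and the classical late activation marker, was at 2008, 1984 and 1984.5 CPM in WT and 2108, 1585 and 1689.8 CPM in knockout (-0.15 ± 0.10, adjusted p = 0.241). Without knockout replicate 1 it was called lower (-0.29, adjusted p = 0.013), and without the 3 libraries with raised B cell markers its sign turned (0.08). Cd2, an adhesion and costimulatory receptor, went from 467, 504 and 432 to 155, 145 and 139.6 CPM (-1.67 ± 0.07, adjusted p = 1.8e-06). Ly6a, which encodes Sca-1, fell by 1.65 and Spn, which encodes CD43, by 0.70, and Tnfsf8, the CD30 ligand gene, rose from 70.7, 83.5 and 76.3 to 214, 241 and 226 CPM (1.56 ± 0.08).

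**Figure D5:**
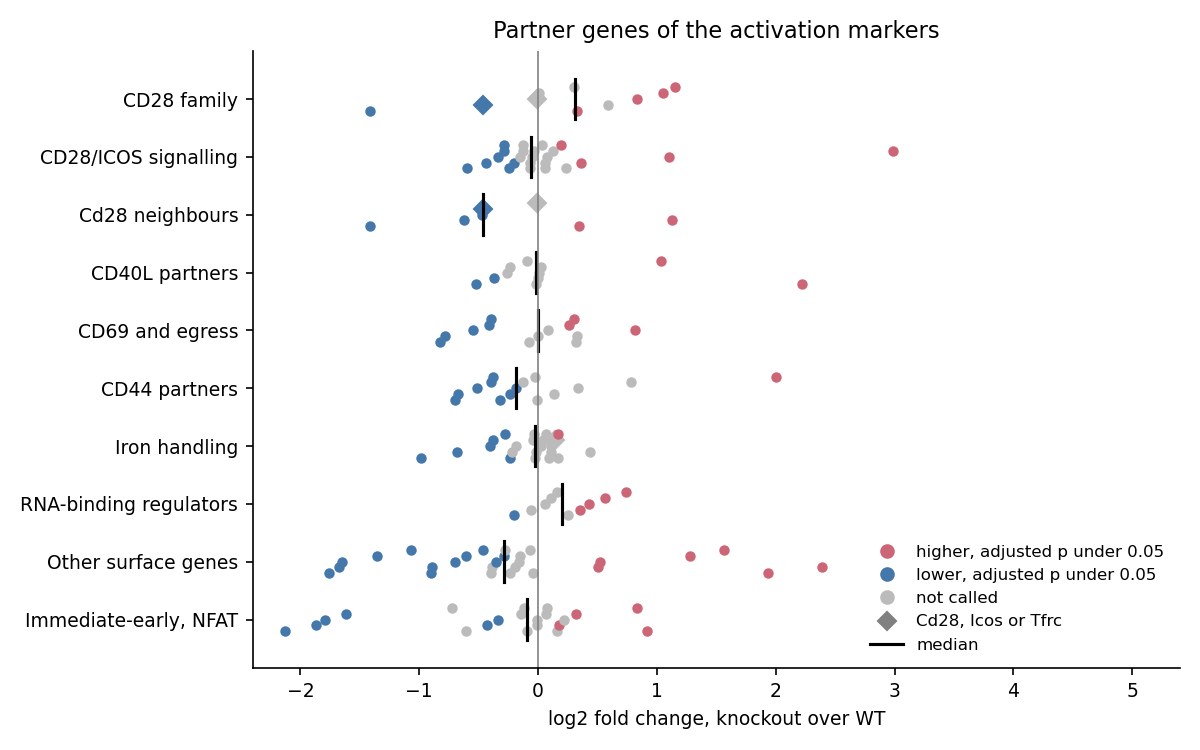
Log2 fold change of knockout over WT (horizontal axis) of every tested gene in 10 lists around the 6 activation genes; colour gives the call at adjusted p under 0.05, diamonds mark Cd28, Icos or Tfrc, and black lines the list medians. Medians lie between -0.46 and 0.32, and called genes lie on both sides of 0 in every list.

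The genes whose profiles over the 6 libraries lay closest to each of the 6 were found among 8525 others with a mean of at least 10 CPM, by the root mean square difference of centred log2 CPM. For Cd69 they were Tgtp1 and Marcksl1 (differences of 0.07 and 0.08, Pearson r = 0.99 and 1.00), and for Cd40lg Gfod1 and Grhpr (0.07 and 0.12, r = 0.99 and 0.98). For Icos they were Leprotl1 and Racgap1 (0.08 for each, r = 0.97 for each). Cd44 was closest to Prrg4 and Tmem43, Tfrc to Dhps and Fut8 and Cd28 to Spag9 and Cep295, none of which was called. These likenesses describe 6 libraries that share the same 2 groups.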

How the data were processed

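Per the labels' protocols, RNA came from a NucleoSpin extraction and the TruSeq kit used marks strand. The authors deposited expected counts, estimated reads per gene in whole numbers that needed no rounding, and Salmon, DESeq and DESeq2 appear in the submitters' processing notes, with no role. The genome build was not given in the sources used here, and genome coordinates were left out. Each of the 15452 rows held at least 10 counts in at least 3 libraries. IDs were matched without version to GENCODE M21 (15138 matched, 314 did not), and of IDs sharing a symbol the most abundant kept it.

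Counts were fitted across the table with edgeR 4.0.16 in R 4.3.3: filterByExpr (91 genes removed), TMM, a robust quasi-likelihood model of genotype alone, and Benjamini-Hochberg adjustment at 0.05. The biological coefficient of variation was 13.8%. The fit was tested on simulated data. The 6 genes and all lists were chosen with earlier results of these data known, and lists are described by counts and medians without a set test. Named are the 6 genes, up to 4 called genes per list by p, fixed partners and the closest profiles. Some genes counted in the lists are not reported here by name. Genes completing counts of 5 or fewer, Egr1 and others named beside a list were chosen after their values were seen. Alternatives were RLE, upper-quartile and no scaling, DESeq2 1.42.0, limma-voom (3.58.1), a minimum of 50 counts in 3 libraries, no filter, no robust step, a test against 1.2-fold, a replicate block and each library left out. After seeing the data 3 were added: dropping the 3 libraries with raised B cell markers, the marker sum as covariate, and leaving out 27 entries over 5 times higher in knockout replicate 2. Figures were drawn with matplotlib 3.10.9.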

Additional observations from a re-analysis of the deposited data

How the results depend on the processing

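Each of the 6 genes was refitted under 19 alternatives, and Cd69 passed in all that kept more than 1 knockout library. Against a fold of 1.2, 3981 genes were called in place of 7311, Icos (-0.46) lost its call, and called genes numbered 4 of 24 for CD28 and ICOS signalling (11 in the edgeR fit above), 2 of 11 for CD40 ligand partners (4), 5 of 13 for CD69 and egress (8), 5 of 15 for CD44 partners (9), 2 of 22 for iron (7) and 2 of 10 for RNA-binding regulators (5). Upper-quartile scaling moved the share of called genes that were higher from 48.53% to 59.95%. The sign of the uncalled Cd28 value turned with upper-quartile scaling (0.0654), library totals (0.0317), at least 50 counts (0.0324) and the B cell marker sum as covariate (0.047). That of Slc3a2 turned with limma-voom (-0.0075), without a filter (-4e-04), with the replicate block (-0.0074) and without the entries raised in knockout replicate 2 (-0.0038). Dropping WT replicate 2 and knockout replicates 2 and 3, which held more B cell markers, gave -0.0194 for Cd44, 0.0254 for Cd28, 0.4092 for Tfrc and 0.0807 for Il2ra. These values rest on knockout replicate 1 alone for the knockout group. With each library left out in turn, values ran from 0.10 to 0.2851 for Cd44, from -0.057 to 0.0584 for Cd28, from -1.06 to -0.67 for Cd40lg, from 0.0442 to 0.2404 for Tfrc and from -0.10 to 0.12 for Slc3a2, and called genes from 4 to 6 for iron and from 3 to 6 for RNA-binding regulators. Over all genes, libraries of equal replicate number did not deviate together (correlations of deviations of -0.0982, 0.0925 and -0.2594), which does not exclude a pairing. With a replicate block the standard error fell for Cd69 (0.1808 to 0.0859), Icos (0.1175 to 0.0747) and Cd40lg (0.2123 to 0.1077). It hardly moved for Cd44, Cd28 and Tfrc. A replicate block left Cd69 at 0.8435 (adjusted p = 0.000114 in edgeR) and changed no call among the 6 genes, and of the genes named only Irf4 lost its call (adjusted p = 0.0742). With 3 libraries a group, differences inside the intervals given for Cd28, Cd44 and Tfrc could not be resolved.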
